A study of Homo sapiens with 12 samples.

Results

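The genes described here are 38 named members of 1 connected system, the AMP-activated protein kinase (AMPK), the autophagy machinery and the lysosome, out of 36137 gene symbols in the count table. They were chosen by name, as a list of the CAMKK2 to AMPK axis, the autophagy genes, the TFEB family and lysosomal genes, and the rule used no measured value, although the list was drawn up with earlier results of these data known. Each of the 38 symbols was found once in the table, and each passed the filter on low counts that left 18468 genes to test. AMPK senses a shortage of cellular energy and, once phosphorylated by the upstream kinases LKB1 or CaMKK2, switches on the ULK1 kinase that starts autophagy. A membrane sheet then grows around cytoplasm with the help of a lipid kinase complex and of ubiquitin-like conjugation enzymes, closes as the autophagosome, and fuses with the lysosome, where hydrolases digest the cargo. TFEB and its relatives are transcription factors that raise many of these genes together, and in prostate cells CAMKK2 is known as a target of the androgen receptor.

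The study set an siRNA against PXN, the gene of the focal adhesion adaptor paxillin, beside a control siRNA in LNCaP, an androgen-responsive human prostate cancer cell line. RNA was read in 4 groups of 3 libraries. The groups were PXN siRNA with dihydrotestosterone (DHT), PXN siRNA with vehicle, non-specific siRNA with DHT, and non-specific siRNA with vehicle. All cells were transfected for 48 h, kept without serum for 12 h, and then given 2.5 nM DHT, a strong natural androgen, or ethanol for 24 h. Serum withdrawal, which all 4 groups share, is itself a stimulus known to act on AMPK and autophagy, so the levels below are those of serum-deprived cells. The PXN siRNAs' number and sequences were not given in the sources used here, so loss of paxillin and other effects of the reagent cannot be told apart. Nothing in the labels says that replicates were separate cultures, and the p-values below therefore measure the spread between these libraries, which may be technical.

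Libraries held 34321000 to 38633456 counts, and levels are given as CPM, the counts of a gene relative to its library size after TMM scaling. PXN stood at 19.96, 18.1 and 16.6 CPM with PXN siRNA and DHT and at 15.2, 21.2 and 14.9 CPM with PXN siRNA and vehicle, against 113, 99.7 and 104 CPM with non-specific siRNA and DHT and 112, 106 and 108 CPM with non-specific siRNA and vehicle, so the libraries matched their siRNA labels. All 10 luminal prostate markers were present. Their summed level was 3401 to 4080 CPM and 2726 to 3199 CPM in the PXN siRNA groups with DHT and vehicle, against 7250.0 to 7983 CPM and 4317 to 4880.0 CPM in the matching non-specific groups. Markers of basal, stromal, endothelial and white blood cells summed to 62.2 to 74.8 CPM with PXN siRNA and 45.8 to 55.1 CPM with non-specific siRNA, with 9 of the 14 listed in the table under 1 CPM. Single markers went both ways in the test described below. With PXN siRNA COL1A1 and TAGLN were called higher under both treatments. LUM and COL3A1 were called lower under both, and KRT14 lower under DHT. Mitochondrially encoded transcripts took 8.42% ± 0.174 and 8.43% ± 0.447 of counts with PXN siRNA (DHT and vehicle, SD, n = 3), against 5.78% ± 0.714 and 5.72% ± 1.59 with non-specific siRNA. The part of these shifts in the results below was not tested.

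PXN siRNA moved these genes in both directions. Under vehicle 21 of the 38 members passed the test, 15 higher and 6 lower with PXN siRNA, and under DHT 23 passed, 16 higher and 7 lower (two-sided quasi-likelihood test of edgeR, with 0.05 as the limit for p adjusted by Benjamini-Hochberg over all tested genes). Of all tested genes 50.2% passed under vehicle and 51.8% under DHT, so the members' total shares of 55.3% and 60.5% lie near the background. By direction 39.5% of the members were higher and 15.8% lower under vehicle, beside 23.9% and 26.3% of all tested genes. Under DHT 42.1% of the members were higher and 18.4% lower, beside 25.0% and 26.7% of all tested genes. Since the list was drawn up with earlier results known, this lean to higher is description only and was not tested. The median log2 fold change over the 38 members was 0.06 under vehicle and 0.07 under DHT, beside 0.02 and 0.03 over all tested genes. The 2 comparisons share no library, but both came from 1 model of all 12 libraries with a shared estimate of spread. They are therefore not independent tests. In them 14 members were higher in both and 6 were lower in both. A further 1 passed only under vehicle, 3 passed only under DHT, 14 passed in neither, and 0 passed in opposite directions. These counts were not made over all tested genes, so they are not read as particular to the members.

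The division between higher and lower depends partly on scaling. With upper-quartile scaling the median of all tested genes shifted to 0.12 under vehicle and 0.13 under DHT, and the members split into 17 higher and 3 lower under vehicle and 19 higher and 4 lower under DHT. Over all tested genes that scaling gave 5668 higher and 3754 lower under vehicle and 5952 higher and 3850.0 lower under DHT. In bulk RNA, fewer cells carrying a transcript and less of that transcript per cell cannot be told apart, and total RNA per cell was not measured.

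**Figure D1:**
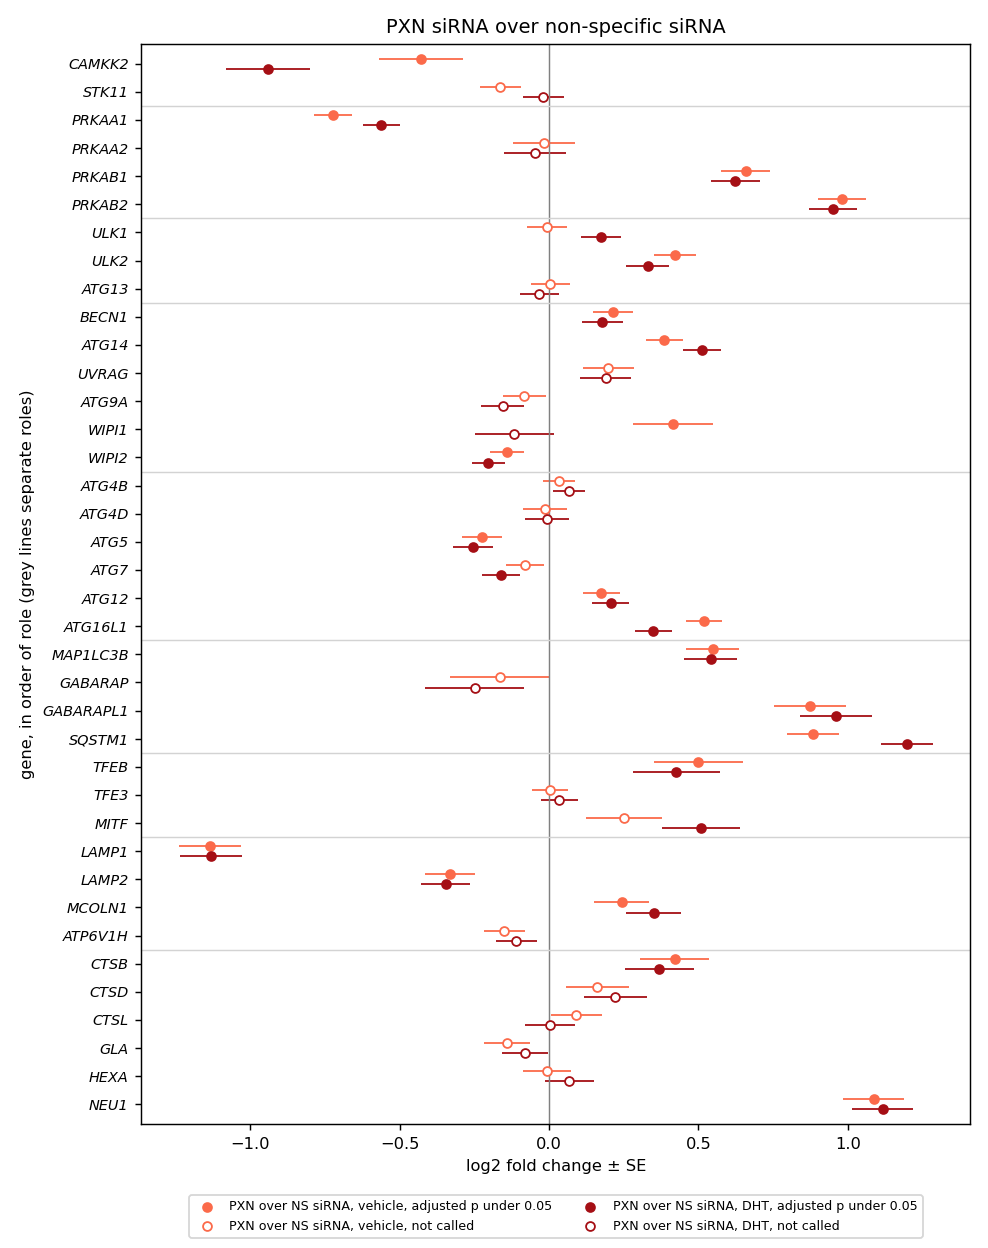
Log2 fold change (± SE) of PXN siRNA over non-specific siRNA for the 38 members, ordered by role, under vehicle (light red) and under DHT (dark red). Filled points passed edgeR's quasi-likelihood test at a Benjamini-Hochberg adjusted p under 0.05 and open points did not. LAMP1 lies farthest to the left at -1.14 and -1.13, and SQSTM1, NEU1, PRKAB2 and GABARAPL1 lie farthest to the right.

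CAMKK2, which encodes the calcium- and calmodulin-dependent kinase that phosphorylates AMPK, fell with PXN siRNA under both treatments. The gene lies at chr12:121237691-121298308 on the minus strand (GRCh38, GENCODE 29). Under vehicle its level was 88.6, 97.0 and 85.7 CPM with PXN siRNA, against 125, 120.2 and 119.9 CPM with non-specific siRNA. With DHT added it was 101, 128 and 134 CPM with PXN siRNA, against 176, 233 and 289 CPM with non-specific siRNA. The groups did not overlap under either treatment, and the DHT-treated libraries with non-specific siRNA spread most widely. The log2 fold change was -0.43 ± 0.14 (SE) under vehicle and -0.94 ± 0.14 under DHT (edgeR's quasi-likelihood test, Benjamini-Hochberg adjusted p = 0.0201 and 6.56e-05). The vehicle call was lost with upper-quartile scaling (-0.33) and without replicate 3 of PXN siRNA with vehicle (-0.41). STK11, which encodes LKB1, passed in neither comparison, at -0.16 ± 0.07 and -0.02 ± 0.07. With the replicate number as a block its vehicle value was -0.16 with an edgeR adjusted p of 0.0326, and it also passed without replicate 3 of PXN siRNA with vehicle (-0.23) or any 1 of the 6 DHT libraries (-0.18 in each).

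AMPK is a trimer of a catalytic alpha, a scaffolding beta and a nucleotide-binding gamma subunit, and its subunit transcripts moved apart. PRKAA1, the alpha 1 catalytic subunit on chr5:40759379-40798374 (minus strand), fell. Under vehicle it stood at 172, 192.5 and 179.8 CPM with PXN siRNA, against 315, 281 and 303 CPM with non-specific siRNA. With DHT the level was 169, 159.6 and 165 CPM with PXN siRNA, against 249, 239 and 241 CPM with non-specific siRNA. Each library with PXN siRNA lay below each library with non-specific siRNA, under both treatments. The log2 fold changes were -0.72 ± 0.06 and -0.56 ± 0.06 (edgeR's quasi-likelihood test, Benjamini-Hochberg adjusted p = 5.14e-07 and 4.60e-06). PRKAA2, the alternative catalytic subunit alpha 2, ranged from 12.4 to 15.5 CPM over the 12 libraries with overlap in every comparison. Per kilobase of exon, PRKAA1 averaged 25.1 CPM with PXN siRNA and DHT and 37.0 CPM with non-specific siRNA and DHT, against 1.44 and 1.49 CPM for PRKAA2 in the same groups, so alpha 1 made up most of the catalytic transcript in both.

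Both beta subunit genes rose. PRKAB1, beta 1, lies at chr12:119667753-119681630 on the plus strand. Under vehicle it stood at 46.2, 45.8 and 44.2 CPM with PXN siRNA, against 27.1, 32.9 and 26.3 CPM with non-specific siRNA. With DHT the level was 43.6, 44.3 and 45.2 CPM with PXN siRNA, against 28.6, 31.3 and 26.5 CPM with non-specific siRNA. The PXN siRNA libraries lay close together and above every control library, with log2 fold changes of 0.66 ± 0.08 and 0.62 ± 0.08 (edgeR's quasi-likelihood test, Benjamini-Hochberg adjusted p = 1.49e-05 and 2.29e-05). PRKAB2, beta 2, lies at chr1:147155106-147172550 on the minus strand. It stood at 54.9, 50.1 and 57.6 CPM with PXN siRNA and vehicle, against 27.7, 27.7 and 27.0 CPM with non-specific siRNA and vehicle. With DHT it stood at 55.8, 47.5 and 54.7 CPM with PXN siRNA, against 25.4, 29.9 and 26.4 CPM with non-specific siRNA. PRKAB2 was thus close to doubled, with no overlap, at log2 fold changes of 0.98 ± 0.08 and 0.95 ± 0.08 (edgeR's quasi-likelihood test, Benjamini-Hochberg adjusted p = 3.37e-07 and 4.22e-07). Per kilobase of exon PRKAB2 averaged 9.93 CPM and PRKAB1 7.27 CPM with PXN siRNA and vehicle, while with non-specific siRNA and vehicle they averaged 5.04 and 4.60 CPM.

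**Figure D2:**
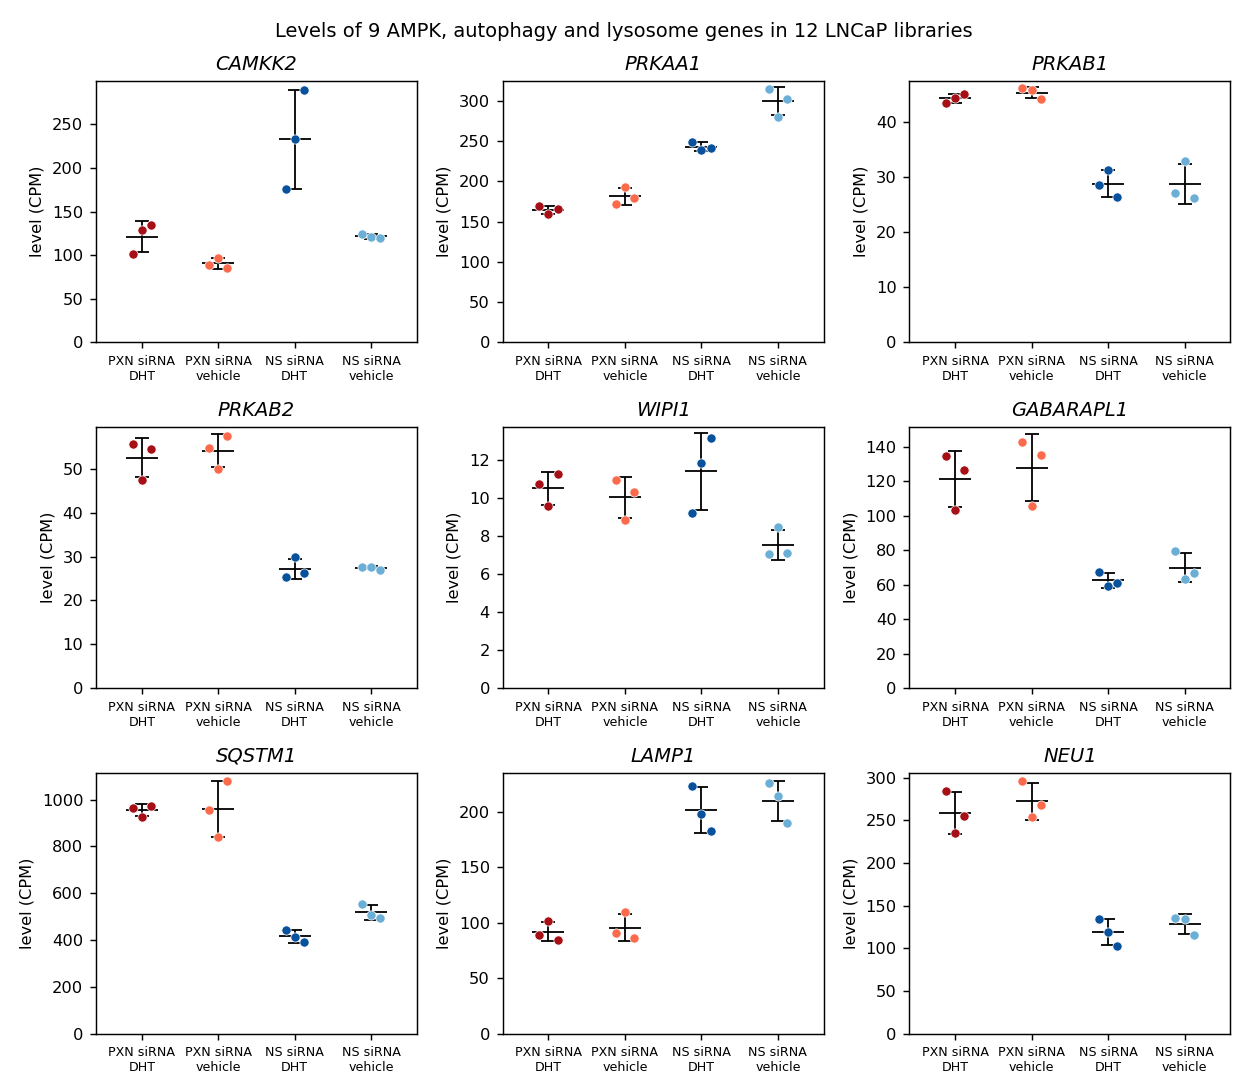
Levels in CPM of CAMKK2 and the 8 other members that passed the test with a log2 fold change of at least 0.58 in size in any pairwise comparison, 1 panel a gene. Points are libraries (3 a group), horizontal lines the group mean and bars ± 1 SD. The PXN siRNA groups lie apart from the non-specific groups for PRKAA1, PRKAB1, PRKAB2, GABARAPL1, SQSTM1, LAMP1 and NEU1, while CAMKK2 and WIPI1 are highest in non-specific siRNA with DHT.

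At the next step stands the ULK complex, in which the kinases ULK1 and ULK2 act with the adaptor ATG13. ULK2 rose in both comparisons, averaging 45.2 ± 2.85 CPM with PXN siRNA and 33.7 ± 2.25 CPM with non-specific siRNA under vehicle (SD, n = 3 each). Its log2 fold changes were 0.42 ± 0.07 under vehicle and 0.33 ± 0.07 under DHT, with no overlap between groups (edgeR's quasi-likelihood test, Benjamini-Hochberg adjusted p = 0.000205 and 0.00133). ULK1 passed only under DHT, at 0.17 ± 0.07 (edgeR adjusted p = 0.0400), and was at -0.01 ± 0.07 under vehicle. That ULK1 call was lost without any 1 library other than replicate 2 of PXN siRNA with vehicle (0.13 to 0.18) and with no filter on low counts (0.15). ATG13 passed in neither, ranging from 103 to 116 CPM over the 12 libraries.

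The PI3-kinase complex of autophagy makes the lipid PI3P on the growing membrane, and the WIPI proteins read it. ATG14, the subunit that directs the complex to autophagy, rose, averaging 34.3 ± 0.456 CPM with PXN siRNA and 26.3 ± 0.268 CPM with non-specific siRNA under vehicle. Its log2 fold changes were 0.39 ± 0.06 and 0.51 ± 0.06 under vehicle and DHT, without overlap (edgeR's quasi-likelihood test, Benjamini-Hochberg adjusted p = 0.000126 and 1.04e-05). BECN1, beclin 1 of the same complex, passed in both at 0.21 ± 0.07 and 0.18 ± 0.07. WIPI2, the PI3P reader that recruits the conjugation machinery, passed in both in the other direction at -0.14 ± 0.06 and -0.20 ± 0.06. UVRAG, the alternative subunit to ATG14, was at 0.20 ± 0.08 and 0.19 ± 0.09, and ATG9A, a transmembrane lipid scramblase, was at -0.08 ± 0.07 and -0.16 ± 0.07, none of them called. With the replicate block UVRAG under vehicle was at 0.20 with an edgeR adjusted p of 0.0155. ATG9A passed under DHT without replicate 3 of non-specific siRNA with vehicle (-0.17) or with DHT (-0.23).

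Several of these small changes passed the threshold narrowly, and their calls were lost in fits with 1 library fewer. BECN1 under vehicle was lost without replicate 2 of non-specific siRNA with vehicle (0.12) or replicates 1 or 3 of PXN siRNA with vehicle (0.17 and 0.20), and with no low-count filter (0.19). Under DHT the BECN1 call was lost without any 1 library other than replicate 2 of non-specific siRNA with vehicle (0.12 to 0.19), and with DESeq2 size factors (0.18), DESeq2's Wald test (0.18) or no low-count filter (0.16). WIPI2 under vehicle was lost without replicate 1 of non-specific siRNA with vehicle (-0.11) or replicates 2 or 3 of PXN siRNA with vehicle (-0.15 in both), and in 5 other settings. With upper-quartile scaling WIPI2 was at -0.04 under vehicle and -0.10 under DHT, neither of them called. Reads of BECN1 could also be shared with neighbours, since 17.1% of its exonic bases overlap genes on the opposite strand in GENCODE 29, and whether counting used the strand was not given in the sources used here.

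WIPI1, the second PI3P reader, passed only under vehicle. It lies at chr17:68420948-68457513 on the minus strand, and 28.1% of its exonic bases overlap opposite-strand genes, among them ARSG, so its level is less certain. Under vehicle WIPI1 stood at 11.0, 8.86 and 10.4 CPM with PXN siRNA, against 7.05, 8.47 and 7.11 CPM with non-specific siRNA. With DHT the level was 10.7, 9.59 and 11.3 CPM with PXN siRNA, against 9.22, 11.8 and 13.2 CPM with non-specific siRNA. The vehicle groups did not overlap and the DHT groups did. The log2 fold change was 0.41 ± 0.13 under vehicle (edgeR's quasi-likelihood test, Benjamini-Hochberg adjusted p = 0.0191) and -0.12 ± 0.13 under DHT, which did not pass. The vehicle call was lost without replicate 1 or 3 of non-specific siRNA with vehicle (0.35 and 0.36) or replicate 1 or 3 of PXN siRNA with vehicle (0.33 and 0.38).

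A pair of ubiquitin-like conjugation reactions attaches ATG12 to ATG5 and the ATG8 proteins to lipid. ATG16L1, which holds the ATG12 to ATG5 conjugate on the membrane, rose, averaging 47.2 ± 1.93 CPM with PXN siRNA and 32.9 ± 1.02 CPM with non-specific siRNA under vehicle. Its log2 fold changes were 0.52 ± 0.06 and 0.35 ± 0.06, without overlap (edgeR's quasi-likelihood test, Benjamini-Hochberg adjusted p = 8.99e-06 and 0.000260). ATG12 passed at 0.17 ± 0.06 and 0.21 ± 0.06, while ATG5, its conjugation partner, passed in the other direction at -0.23 ± 0.07 and -0.25 ± 0.07. ATG7, the activating enzyme of both reactions, passed only under DHT at -0.16 ± 0.06, and was called at the same value under vehicle without replicate 2 of non-specific siRNA with vehicle. The proteases ATG4B and ATG4D, which trim ATG8 proteins, passed in neither and lay within 0.07 of 0 on the log2 scale.

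Here too the smaller calls were lost in fits with 1 library fewer. ATG12 under vehicle was lost without any 1 library other than replicate 1 of non-specific siRNA with vehicle or replicate 2 of PXN siRNA with DHT (0.13 to 0.17). Under DHT ATG12 was lost without replicates 2 or 3 of non-specific siRNA with DHT (0.17 and 0.18) or replicates 1 or 3 of PXN siRNA with DHT (0.15 and 0.17). With no low-count filter ATG12 was at 0.15 and 0.19 and passed in neither comparison. ATG5 under vehicle was lost without replicate 3 of non-specific siRNA with vehicle (-0.18), and upper-quartile scaling ended its call under vehicle (-0.13) and DHT (-0.15). ATG7 was lost without any of the 6 libraries compared (-0.17 to -0.19), with upper-quartile scaling (-0.06) and in 4 other settings, and 18.1% of its exonic bases overlap VGLL4 on the opposite strand.

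Of the 3 ATG8 genes among the members, the transcripts of GABARAPL1 and MAP1LC3B rose, as did that of the cargo receptor p62, while GABARAP passed in neither comparison. The ATG8 genes MAP1LC3A and GABARAPL2, outside the 38 and named after their values were seen, were at -0.14 ± 0.16 and -0.01 ± 0.07 under vehicle and also passed in neither. MAP1LC3B2, a further ATG8 gene outside the 38, passed in both and was higher with PXN siRNA, though part of its sequence is shared with MAP1LC3B. GABARAPL1, an ATG8 protein on chr12:10212458-10223130 (plus strand), stood at 143, 106 and 135 CPM with PXN siRNA and vehicle, against 79.5, 63.3 and 66.8 CPM with non-specific siRNA and vehicle. Under DHT it stood at 135, 103 and 127 CPM with PXN siRNA, against 67.2, 59.2 and 61.0 CPM with non-specific siRNA. Replicate 2 was the lowest library of each of the 4 groups, and the siRNA groups did not overlap. The log2 fold changes were 0.87 ± 0.12 and 0.96 ± 0.12 (edgeR's quasi-likelihood test, Benjamini-Hochberg adjusted p = 3.38e-05 and 1.37e-05).

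SQSTM1, which encodes p62, the receptor that ties ubiquitin-marked cargo to ATG8 proteins, had the highest level per kilobase of exon of the 4 members in this group, averaging 125 CPM with PXN siRNA and 67.8 CPM with non-specific siRNA under vehicle. It lies at chr5:179806398-179838078 on the plus strand. Under vehicle it stood at 953, 842 and 1081 CPM with PXN siRNA, against 556, 508 and 494 CPM with non-specific siRNA. Under DHT it stood at 966, 924 and 973 CPM with PXN siRNA, against 445, 414 and 390.2 CPM with non-specific siRNA. The groups lay well apart under both treatments. The log2 fold changes were 0.88 ± 0.09 and 1.20 ± 0.09 (edgeR's quasi-likelihood test, Benjamini-Hochberg adjusted p = 1.63e-06 and 1.64e-07). On the opposite strand MGAT4B and MRNIP overlap 22.0% of its exonic bases.

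MAP1LC3B, which encodes LC3B, the ATG8 protein most used to mark autophagosomes, averaged 86.9 ± 8.14 CPM with PXN siRNA and 59.4 ± 5.03 CPM with non-specific siRNA under vehicle. Its log2 fold changes were 0.55 ± 0.09 and 0.54 ± 0.09, with no overlap under either treatment (edgeR's quasi-likelihood test, Benjamini-Hochberg adjusted p = 0.000131 and 0.000141). In its longest protein-coding transcript 10.0% of 50-base stretches also occur in MAP1LC3B2 or the pseudogene MAP1LC3BP1. Some reads could therefore be assigned either way. GABARAP ranged from 1.61 to 2.30 CPM and passed in neither comparison, at -0.17 ± 0.17 and -0.25 ± 0.17. Of its 50-base stretches 42.0% are shared, chiefly with the overlapping gene AC120057.2, so its count is uncertain. Per kilobase of exon GABARAPL1 averaged 31.3 CPM, MAP1LC3B 16.3 CPM and GABARAP 0.809 CPM with PXN siRNA and vehicle, while with non-specific siRNA and vehicle they averaged 17.1, 11.2 and 0.910 CPM.

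**Figure D3:**
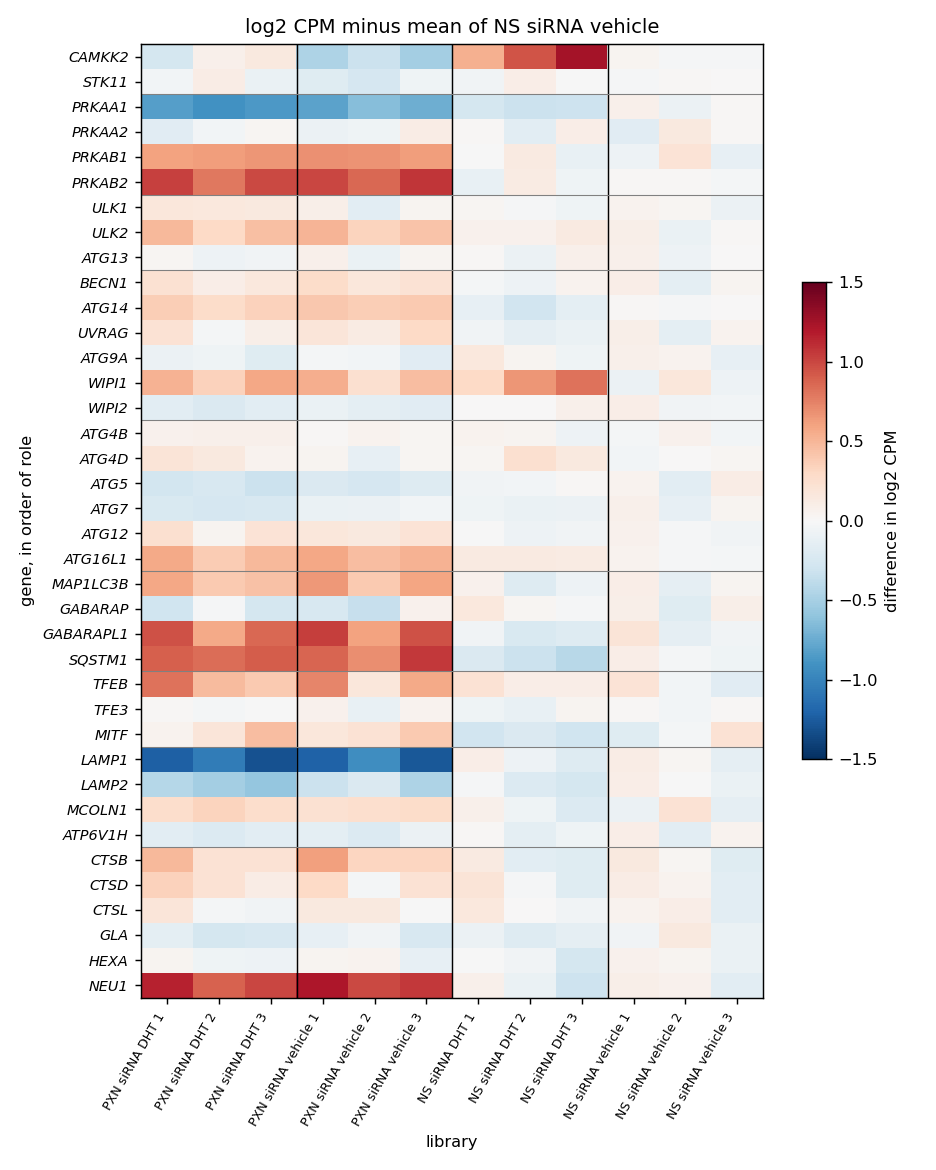
Difference in log2 CPM from the mean of non-specific siRNA with vehicle for the 38 members (rows, by role) in the 12 libraries (columns, PXN siRNA on the left). Red is higher and blue lower. The 6 PXN siRNA libraries share red rows for PRKAB2, GABARAPL1, SQSTM1 and NEU1 and blue rows for PRKAA1 and LAMP1, and the 3 libraries of non-specific siRNA with DHT are red for CAMKK2.

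TFEB, TFE3 and MITF encode the related transcription factors of the lysosome and autophagy genes. TFEB averaged 12.3 ± 2.38 CPM with PXN siRNA and 8.70 ± 1.16 CPM with non-specific siRNA under vehicle, and 12.8 ± 2.05 and 9.54 ± 0.438 CPM under DHT. Its log2 fold changes of 0.50 ± 0.15 and 0.43 ± 0.15 passed (edgeR's quasi-likelihood test, Benjamini-Hochberg adjusted p = 0.0113 and 0.0247), although the vehicle groups overlapped. The vehicle call was lost without replicate 3 of non-specific siRNA with vehicle (0.41) or replicate 1 of PXN siRNA with vehicle (0.36). The DHT call was lost without replicates 2 or 3 of non-specific siRNA with DHT (0.38 and 0.39) or replicate 1 of PXN siRNA with DHT (0.27). MITF passed only under DHT, at 0.51 ± 0.13 (edgeR adjusted p = 0.00433), with 8.33 ± 1.24 CPM with PXN siRNA and 5.85 ± 0.159 CPM with non-specific siRNA. Its vehicle value of 0.25 ± 0.13 passed with the replicate block (0.25, edgeR adjusted p = 0.0330), with upper-quartile scaling (0.35) and without replicate 3 of non-specific siRNA with vehicle (0.35). TFE3 was at 0.00 ± 0.06 and 0.03 ± 0.06 and passed in neither. Per kilobase of exon it was the highest of the 3, at 21.9 CPM with PXN siRNA and vehicle, beside 2.18 CPM for TFEB and 1.17 CPM for MITF.

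The DNA word these factors are known to bind contains the E-box CACGTG, and members with the word at their start moved in both directions. RefSeq promoter windows on GRCh38.p14, from 250 bases before to 50 after the transcript start, were found for 32 of the 38 members. They made 40 windows in all, with none for UVRAG, ATG4D, LAMP2, ATP6V1H, CTSB and HEXA. The windows of LAMP1, MCOLN1, CTSD, NEU1 and ATG14 held the E-box on reading both strands, which is 12.5% of the member windows, beside 8.34% of 22199 windows of protein-coding genes and 7.26% of all 35116 windows. The longer word TCACGTG, which contains the E-box, was in the same 12.5%, beside 4.44% of the coding windows. LAMP1 held 6 E-boxes and was the 1 coding window with that many, and MCOLN1 held 2, while 0.851% of coding windows hold 2 or more. Member windows were richer in G and C, with a median of 68.8% beside 62.3% over the coding windows, and the part of base composition in these shares was not tested. The stretches around the words are printed 5′ to 3′ on the strand of the gene, with each E-box in capitals, since this word is the known recognition sequence of the TFEB family.
ATG14, chr14:55411831-55411871, minus strand: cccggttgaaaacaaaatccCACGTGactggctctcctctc
LAMP1, chr13:113297027-113297243, plus strand: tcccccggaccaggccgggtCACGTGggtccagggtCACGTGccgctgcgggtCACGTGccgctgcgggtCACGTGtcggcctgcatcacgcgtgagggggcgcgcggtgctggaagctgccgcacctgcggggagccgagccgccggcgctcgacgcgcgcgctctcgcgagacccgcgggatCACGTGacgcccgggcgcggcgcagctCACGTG
MCOLN1, chr19:7522563-7522623, plus strand: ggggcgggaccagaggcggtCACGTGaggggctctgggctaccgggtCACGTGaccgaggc
CTSD, chr11:1763949-1763994, minus strand: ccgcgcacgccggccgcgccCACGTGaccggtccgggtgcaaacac
NEU1, chr6:31862922-31862967, minus strand: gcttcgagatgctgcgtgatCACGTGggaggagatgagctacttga

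The first base of the E-box lay 21 bases before the transcript start in ATG14, 47 in CTSD and 126 in NEU1, and 41 and 14 bases before it in MCOLN1. In LAMP1 the words began 192, 176, 159, 142, 28 and 1 bases before the start. A match of letters does not show that a factor binds, and binding was not tested. With PXN siRNA LAMP1 was lower, MCOLN1, NEU1 and ATG14 were higher, and CTSD was not called in either comparison.

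**Figure D4:**
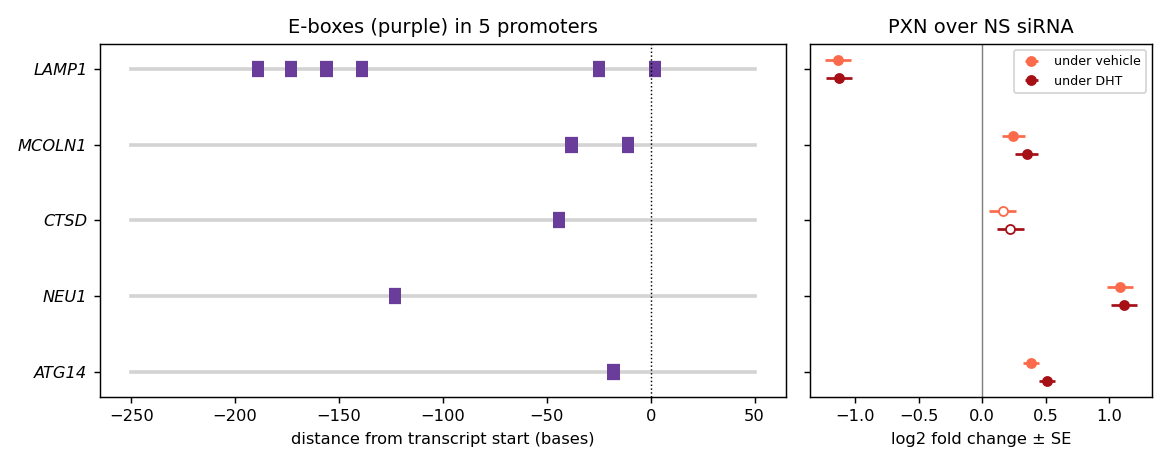
Left, positions of the E-box CACGTG (purple) in the RefSeq promoter windows of the 5 members that hold it, in bases from the transcript start. Right, log2 fold change (± SE) of PXN siRNA over non-specific siRNA under vehicle (light red) and DHT (dark red) for the same genes, filled where the test was passed. LAMP1, with 6 words, lies at -1.14 and -1.13, and NEU1, with 1 word, at 1.09 and 1.12.

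LAMP1, the abundant membrane glycoprotein by which lysosomes are usually recognised, fell the most of the 38 members. Its gene lies at chr13:113297241-113323672 on the plus strand. Under vehicle it stood at 90.5, 109 and 86.6 CPM with PXN siRNA, against 226, 214 and 189.8 CPM with non-specific siRNA. Under DHT it stood at 89.3, 101 and 84.7 CPM with PXN siRNA, against 223, 198 and 182 CPM with non-specific siRNA. The lowest control library lay far above the highest PXN siRNA library. LAMP1 was 2.20-fold lower under vehicle and 2.19-fold lower under DHT, with log2 fold changes of -1.14 ± 0.10 and -1.13 ± 0.10 (edgeR's quasi-likelihood test, Benjamini-Hochberg adjusted p = 8.24e-07 and 8.29e-07).

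The other lysosomal membrane genes changed less. LAMP2, the paralogous glycoprotein needed for fusion of autophagosomes, averaged 324 ± 27.3 CPM with PXN siRNA and 408 ± 27.5 CPM with non-specific siRNA under vehicle. It was at -0.33 ± 0.08 and -0.35 ± 0.08, without overlap (edgeR's quasi-likelihood test, Benjamini-Hochberg adjusted p = 0.00399 and 0.00280). Per kilobase of exon LAMP1 averaged 16.6 CPM and LAMP2 58.6 CPM with PXN siRNA and vehicle, while with non-specific siRNA and vehicle they averaged 36.6 and 73.8 CPM. MCOLN1, the lysosomal calcium channel whose promoter holds 2 E-boxes, was higher, at 0.24 ± 0.09 and 0.35 ± 0.09 (edgeR adjusted p = 0.0385 and 0.00515). The vehicle call of MCOLN1 was lost without replicates 1 or 3 of non-specific siRNA with vehicle (0.18 and 0.16), without replicate 2 of non-specific siRNA with DHT (0.22), without any 1 of the 6 PXN siRNA libraries (0.21 to 0.24), with only the groups compared (0.25) and with no low-count filter (0.22). ATP6V1H, the regulatory H subunit of the proton pump that acidifies the lysosome, was at -0.15 ± 0.07 and -0.11 ± 0.07 and passed in neither. With the replicate block its vehicle value of -0.15 had an edgeR adjusted p of 0.0190, and without replicate 2 of non-specific siRNA with vehicle it passed at -0.25.

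NEU1 rose, and it had the largest rise of the 6 hydrolases among the members. It encodes lysosomal sialidase, which trims sialic acid from glycoproteins such as LAMP1, and lies at chr6:31857659-31862906 on the minus strand. Under vehicle it stood at 296, 254 and 268 CPM with PXN siRNA, against 136, 134 and 115 CPM with non-specific siRNA. Under DHT it stood at 284, 236 and 256 CPM with PXN siRNA, against 135, 119 and 103 CPM with non-specific siRNA. Every PXN siRNA library lay above every control library. NEU1 was 2.12-fold higher under vehicle and 2.17-fold higher under DHT, with log2 fold changes of 1.09 ± 0.10 and 1.12 ± 0.10 (edgeR's quasi-likelihood test, Benjamini-Hochberg adjusted p = 1.08e-06 and 8.43e-07).

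Of the other 5 hydrolases among the members only the cysteine protease CTSB passed, averaging 265 ± 32.4 CPM with PXN siRNA and 198 ± 22.9 CPM with non-specific siRNA under vehicle. Its log2 fold changes were 0.42 ± 0.11 and 0.37 ± 0.11 (edgeR's quasi-likelihood test, Benjamini-Hochberg adjusted p = 0.00711 and 0.0144). The vehicle call was lost without replicate 3 of non-specific siRNA with vehicle (0.32) or replicate 1 of PXN siRNA with vehicle (0.30). The DHT call was lost without replicates 2 or 3 of non-specific siRNA with DHT (0.30 and 0.29) or replicate 1 of PXN siRNA with DHT (0.25). The aspartic protease CTSD was at 0.16 ± 0.11 and 0.22 ± 0.11, the cysteine protease CTSL at 0.09 ± 0.08 and 0.00 ± 0.08, alpha-galactosidase GLA at -0.14 ± 0.08 and -0.08 ± 0.08, and HEXA, the alpha chain of beta-hexosaminidase, at -0.01 ± 0.08 and 0.07 ± 0.08, none of them called. CTSD shares 60.6% of the 50-base stretches of its longest protein-coding transcript with the overlapping gene AC068580.4, and HEXA shares 12.1% with other genes. Counts of both are less certain, as are those of ATG9A with 44.8% shared. CTSD passed under DHT without replicate 1 of non-specific siRNA with DHT (0.31).

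DHT changed few members. With non-specific siRNA 4 of the 38 passed, CAMKK2 and WIPI1 higher and PRKAA1 and SQSTM1 lower with DHT, beside 4.87% of all tested genes (2.72% higher and 2.16% lower). The median log2 fold change over the members was -0.02 and over all tested genes -0.01. CAMKK2 averaged 233 ± 56.9 CPM with DHT and 122 ± 2.70 CPM with vehicle, at a log2 fold change of 0.94 ± 0.14 with no overlap (edgeR's quasi-likelihood test, Benjamini-Hochberg adjusted p = 0.00133). WIPI1 averaged 11.4 ± 2.02 CPM with DHT and 7.54 ± 0.800 CPM with vehicle, at 0.60 ± 0.13 (edgeR adjusted p = 0.0182). PRKAA1 averaged 243 ± 5.65 CPM with DHT and 299.6 ± 17.5 CPM with vehicle, at -0.30 ± 0.06 (edgeR adjusted p = 0.0102). SQSTM1 averaged 416 ± 27.5 CPM with DHT and 519 ± 32.3 CPM with vehicle, at -0.32 ± 0.09 (edgeR adjusted p = 0.0486). DHT and vehicle libraries did not overlap for any of these 4 genes, which were picked by the test on the same libraries. Overlap was not counted over all tested genes, so its absence is not read as further support.

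Apart from CAMKK2, these calls were lost on leaving out single libraries. WIPI1 was lost without replicate 1 or 3 of vehicle (0.56 and 0.57) or replicate 2 or 3 of DHT (0.58 and 0.49), all with non-specific siRNA. PRKAA1 was lost without the same 4 libraries (-0.26, -0.28, -0.28 and -0.29). SQSTM1 was lost without any of the 3 vehicle libraries (-0.26, -0.33 and -0.34) or replicates 2 or 3 of DHT with non-specific siRNA (-0.31 and -0.27), without replicate 1 of PXN siRNA with vehicle or any of the 3 libraries of PXN siRNA with DHT (-0.31 in each), with DESeq2 size factors (-0.31) and with only the groups compared (-0.31). ATG14, at -0.18 ± 0.06 with non-overlapping groups, passed only with the replicate block (-0.18, edgeR adjusted p = 0.0380), which also moved the count over all tested genes to 2236, against 900 without it.

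With PXN siRNA 0 members passed for DHT over vehicle, beside 0.184% of all tested genes, 34 in number (edgeR's quasi-likelihood test, Benjamini-Hochberg). At an unadjusted p under 0.05 the test held 5 members and 1378 of all tested genes (7.46%), and DESeq2's Wald test also called 0 members and 140 genes in all. The replicate block called 0 members and 346 genes in all. CAMKK2 averaged 121 ± 17.7 CPM with DHT and 90.4 ± 5.91 CPM with vehicle, without overlap, at 0.42 ± 0.14 (unadjusted p = 0.00908, edgeR adjusted p = 0.401). It was called when no low-count filter was applied (0.43, edgeR adjusted p = 0.0373). SQSTM1 was at -0.01 ± 0.09, WIPI1 at 0.07 ± 0.13 and PRKAA1 at -0.14 ± 0.06.

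**Figure D5:**
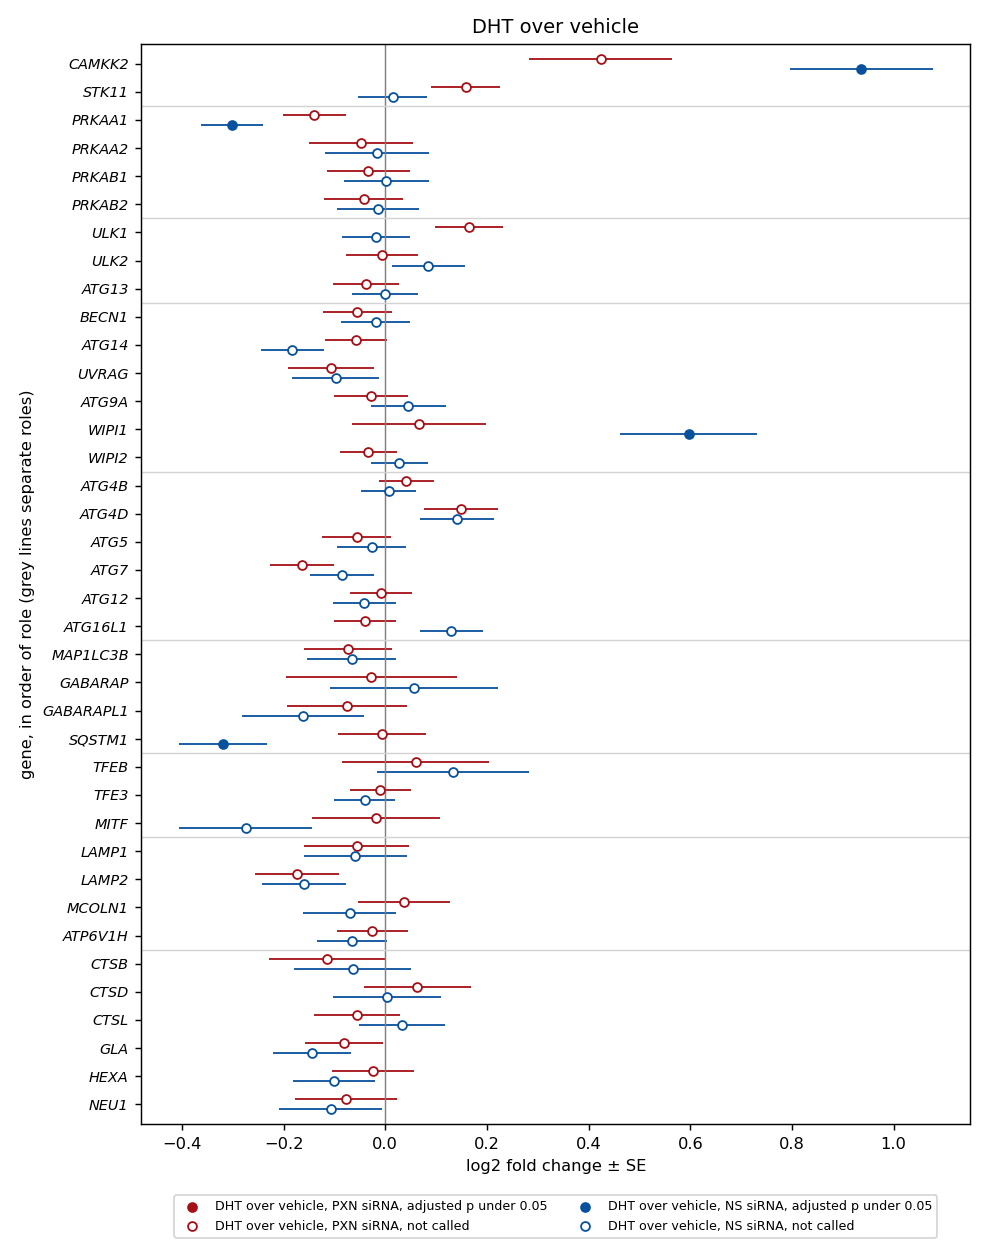
Log2 fold change (± SE) of DHT over vehicle for the 38 members, ordered by role, with PXN siRNA (dark red) and with non-specific siRNA (blue). Filled points passed edgeR's quasi-likelihood test at a Benjamini-Hochberg adjusted p under 0.05. CAMKK2 lies at 0.42 with PXN siRNA and 0.94 with non-specific siRNA, and 4 points in all are filled.

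Whether DHT acted differently under the 2 siRNAs was tested as an interaction, the DHT effect with PXN siRNA minus that with non-specific siRNA. No member passed and 0% of all tested genes did (edgeR's quasi-likelihood test, Benjamini-Hochberg), while DESeq2's Wald test called 0 members and 29 genes and the replicate block 0 members and 58 genes. Under an unadjusted p of 0.05 lay 3 members and 778 of all tested genes. In this edgeR test CAMKK2 was at -0.51 (95% interval -0.97 to -0.06), WIPI1 at -0.53 (-0.97 to -0.10) and SQSTM1 at 0.31 (0.03 to 0.59), each with an adjusted p of 1. These intervals leave out 0, but no difference in the DHT effect was called after correction over all genes. For LAMP1 and NEU1 the difference was 0.00 (-0.33 to 0.34) and 0.03 (-0.30 to 0.36).

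A further 159 genes of the same system, in 7 lists that leave out the 38 members, were read beside them, and 149 were tested. With PXN siRNA 53 were higher and 21 lower under vehicle, and 55 higher and 26 lower under DHT. In total that is 49.7% and 54.4% of those tested, near the background of 50.2% and 51.8%. By direction these genes leaned to higher, while all tested genes were 23.9% higher and 26.3% lower under vehicle. Under DHT that background was 25.0% higher and 26.7% lower. The median log2 fold change of the 149 was 0.12 under vehicle and 0.14 under DHT, beside 0.02 and 0.03 over all tested genes. The lists were chosen with earlier results known, and the lean was not tested. With DHT 4 were higher and 4 lower under non-specific siRNA (5.37%), and 0 passed with PXN siRNA or in the interaction (edgeR's quasi-likelihood test, Benjamini-Hochberg). The genes named next for PXN siRNA are among those of each list with the smallest p under vehicle, and their calls under vehicle held in all the alternatives run. SESN1 and MTOR were taken by the smallest p for DHT with non-specific siRNA.

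Around AMPK, 4 of 14 tested regulators were higher and 3 lower under vehicle, and 7 higher and 3 lower under DHT. In total 50% and 71.4% passed, beside 50.2% and 51.8% of all tested genes. Differences of the shares of single lists from this background were not tested. PRKAG1, the gamma 1 subunit, averaged 71.7 CPM with PXN siRNA and 113 CPM with non-specific siRNA under vehicle, at -0.66 ± 0.06, so it fell as PRKAA1 did while both beta subunits rose (edgeR's quasi-likelihood test, Benjamini-Hochberg adjusted p = 1.76e-06). The LKB1 partners moved apart, with CAB39L, a scaffold of the LKB1 complex, at -0.88 ± 0.10 and the pseudokinase STRADA at 1.11 ± 0.13 under vehicle. Of 22 tested genes of mTORC1, the growth kinase complex that holds autophagy and TFEB in check, 7 were higher and 6 lower under vehicle and 8 higher and 7 lower under DHT. Those are 59.1% and 68.2% in total, beside the same background. FLCN, folliculin, which controls the Rag GTPases at the lysosome, was at 0.99 ± 0.11, the Rag GTPase RRAGB at 0.94 ± 0.10, and AKT1S1, an inhibitory subunit, at -0.59 ± 0.06 under vehicle.

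Of 28 other autophagy genes tested, 9 were higher and 2 lower under vehicle and 13 higher and 3 lower under DHT. That is 39.3% and 57.1% in total, beside 50.2% and 51.8% of all tested genes. ATG9B, the paralogue of ATG9A, ranged from 9.72 to 15.6 CPM in the vehicle libraries with PXN siRNA, against 1.29 to 2.56 CPM with non-specific siRNA, at 2.56 ± 0.26 (edgeR's quasi-likelihood test, Benjamini-Hochberg adjusted p = 1.89e-06). RB1CC1, the scaffold FIP200 of the ULK complex, was at 0.70 ± 0.09, and PLEKHM1, an adaptor for fusion with the lysosome, at 0.84 ± 0.11. Among 11 autophagy receptors 4 were higher and 2 lower under vehicle, and 5 higher and 3 lower under DHT. Their total shares were 54.5% and 72.7%, beside the same background. OPTN, optineurin, averaged 56.4 CPM with PXN siRNA and 21.7 CPM with non-specific siRNA under vehicle, at 1.38 ± 0.15, in the direction of SQSTM1 (edgeR adjusted p = 3.28e-06).

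Of 34 further hydrolases tested, 14 were higher and 3 lower under vehicle, and 12 higher and 4 lower under DHT. That is 50% and 47.1% in total, beside 50.2% and 51.8% of all tested genes. CTSS, cathepsin S, ranged from 1.91 to 2.48 CPM with PXN siRNA, against 0.115 to 0.379 CPM with non-specific siRNA under vehicle, at 3.20 ± 0.31, a large ratio at a low level. TPP1, tripeptidyl peptidase, was at 0.64 ± 0.10. Of 22 other lysosomal membrane and lumenal proteins 12 were higher and 3 lower under vehicle, and 9 higher and 3 lower under DHT. Those are 68.2% and 54.5% in total, beside the same background. Under vehicle the membrane protein TMEM192 was at -0.68 ± 0.08 and the cholesterol carrier NPC2 at 0.61 ± 0.07. Of 18 other subunits of the proton pump 3 were higher and 2 lower under vehicle, and 1 higher and 3 lower under DHT. Their total shares of 27.8% and 22.2% lie below that background, a difference that was not tested. ATP6V1C1 was at -0.67 ± 0.06 and ATP6V1G1 at 0.49 ± 0.07 under vehicle. For DHT over vehicle with non-specific siRNA, SESN1, a sestrin that acts on AMPK and mTORC1, was at -0.59 ± 0.10 (edgeR's quasi-likelihood test, Benjamini-Hochberg adjusted p = 0.00369). MTOR itself was at 0.47 ± 0.10 (edgeR adjusted p = 0.0102), a call that was lost without replicate 2 or 3 of DHT with non-specific siRNA (0.43 and 0.39).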

How the data were processed

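The authors deposited raw counts, 1 whole number for each gene symbol and library. The submitters' processing notes list Trimmomatic 0.32, STAR 2.4.2a, featureCounts of Subread 1.5.0p3 and GRCh38. Libraries were made with a stranded mRNA kit, per the labels' protocols. Annotation, strand setting and treatment of multiply mapped reads were not given in the sources used here, so reads of overlapping or near-identical genes may be split or lost. All 12 libraries were placed by their own labels and kept, and all replicate pairs differed by more than sampling noise.

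From the deposited counts, genes were kept with filterByExpr in edgeR 4.0.16 (R 4.3.3), which left out 17669 of 36137. Libraries were scaled by TMM, and a quasi-likelihood model of 4 group means was fitted to all 12 libraries with 8 residual degrees of freedom. The pairwise contrasts and the interaction were tested two-sided, with Benjamini-Hochberg adjustment over 18468 genes and a threshold of 0.05. The SE is the log2 fold change divided by the root of its F value, and 95% intervals use 8 degrees of freedom. Alternatives were DESeq2 size factors, upper-quartile scaling, no low-count filter, DESeq2 1.42.0's Wald test, only the groups compared, a replicate block, and leaving out each library.

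The groups share replicate numbers that the labels do not explain. Between same-numbered libraries, deviations from the group means correlated at 0.121 to 0.210 (PXN siRNA under vehicle), 0.145 to 0.383 (DHT, non-specific siRNA) and 0.100 to 0.307 (DHT, PXN siRNA). Each value exceeded the limit of 0.1, and the block value is therefore given where it changed a call. For PXN siRNA under DHT the range was 0.0769 to 0.284, and the numbers were not taken to pair in that comparison. The limit was applied to each comparison alone, although the comparisons share libraries, so it does not settle what the numbers mean. The calls that the block changed for PXN siRNA under DHT are given in the closing section.

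Gene positions, exon lengths and 50-base sharing came from GENCODE 29, and promoters from RefSeq, with Python 3.11.15. Exon lengths cover all annotated exons of a gene, while 50-base sharing was counted over the longest protein-coding transcript of each member. The members and all lists were chosen with earlier results of these data known. Values in every library are given for PXN, CAMKK2 and members called with a log2 fold change of at least 0.58 in size in any pairwise contrast. From each further list up to 3 genes with the smallest p were taken. KIAA0226 and FAM134B stand in the table for RUBCN and RETREG1, and ATP6V1G3 was not used here. Correction of counts for GC content was not applied.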

Additional observations from a re-analysis of the deposited data

How the results depend on the processing

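Over the 38 members, 5 comparisons and 18 alternatives, 3382 values were computed. Of these 3240 kept their side of the threshold, 115 lost a call, 27 gained one, and none of the called values changed sign, although 217 values that passed in neither fit did. Leaving out 1 library moved the count of members called to between 15 and 21 for PXN siRNA under vehicle (21 with all libraries), 17 and 22 under DHT (23), 1 and 4 for DHT with non-specific siRNA (4), and 0 in every case for DHT with PXN siRNA and the interaction. Over all genes it gave 7796 to 9431, 8276 to 9890, 416 to 1361 (against 900), 10 to 80 (against 34) and 0 to 45 in the same order.

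With the replicate block 25 members and 10628 genes in all passed for PXN siRNA under vehicle, 26 and 10869 under DHT, and 2236 genes for DHT with non-specific siRNA, 346 for DHT with PXN siRNA and 58 for the interaction. For PXN siRNA under DHT, where the numbers were not taken to pair, the block added UVRAG (0.19), ATG9A (-0.15) and CTSD (0.23). Beyond the calls named in the results, it changed no other call of a member. For DHT with PXN siRNA, no low-count filter gave 1 member and 188 genes, DESeq2's Wald test 140 genes, and only the groups compared 18 genes. For the interaction, DESeq2 size factors gave 1 gene, no low-count filter 35 and DESeq2's Wald test 29. Further gains were CTSD under DHT (0.32), ATG4B under DHT (0.17) and UVRAG under vehicle (0.30) and DHT (0.29) with upper-quartile scaling. The causes of these differences were not tested. With 3 libraries a group, calls as large as 0.60 (WIPI1, DHT with non-specific siRNA) were lost on leaving out 1 library.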
